A study of Bos taurus with 11 samples.

Results

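The miR-378 family was followed in the mammary gland of 2 dairy breeds. Its members were the rows of the deposited count table named bta-miR-378, bta-miR-378b, bta-miR-378c and bta-miR-378d, which are 4 of the 796 rows of the table. All 4 were among the 754 rows with at least 1 read and among the 550 rows with at least 10 reads summed over the libraries, on which the breeds were compared. No mature sequence of a member was at hand, so membership rests on the names.

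Small RNAs were sequenced from biopsies of lactating mammary tissue, with 1 library per cow, from 5 Holstein cows and 6 Montbéliarde cows. The cows of both breeds were in mid-lactation and received the same diet, and breed is the only factor that separates the 2 groups in the labels. The series compares the miRNA content of the gland between breeds that differ in dairy performance. The libraries held between 6087865 and 16808976 counted reads, 7431936 to 16808976 in Holstein and 6087865 to 11395785 in Montbéliarde.

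A miRNA is cut from a hairpin precursor and guides the silencing complex to messenger RNAs, mostly through a short stretch at its 5′ end called the seed. miR-378 is best known from energy metabolism: its gene lies in an intron of PPARGC1B, which encodes PGC-1β, a coactivator of mitochondrial and lipid metabolism genes, and it is abundant in skeletal muscle, heart and adipose tissue. A mammary biopsy holds milk-secreting epithelium together with stroma, vessels, adipocytes and blood cells, so that in such tissue fewer cells of a type and less of a miRNA per cell cannot be told apart.

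The gene annotation names 5 loci for the family (RefSeq, assembly ARS-UCD2.0, used for names and neighbours only, since the reads were aligned to another assembly). MIR378-1 lies within PPARGC1B, between ARHGEF37 and PDE6A, and MIR378-2 lies within CALCR, the calcitonin receptor gene, between VPS50 and TFPI2. Both loci carry the name of bta-miR-378, and their reads cannot be told apart in 1 row of counts. MIR378C lies within ZNF521, which encodes a zinc finger protein, and MIR378D within MSI2, which encodes an RNA-binding protein. MIR378B lies in no other gene, between THY1 and NECTIN1. No host gene is shared between loci.

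bta-miR-378 made up almost the whole family. It had 62368 reads over the 11 libraries, which is 98.5% of the family's reads, against 1.38% for bta-miR-378c, 0.125% for bta-miR-378b and 0.0189% for bta-miR-378d. By mean normalized read count, the read count divided by a size factor per library, bta-miR-378 stood at rank 71 of the 796 rows, bta-miR-378c at rank 228, bta-miR-378b at rank 383 and bta-miR-378d at rank 540. Levels were not divided by length, because a read of a small RNA library spans the whole mature miRNA. The order of the members was the same in every library, and their ranges did not touch. The lowest level of bta-miR-378, 3413, was far above the highest of bta-miR-378c, 105.9, whose lowest level, 45.0, was in turn above the highest of bta-miR-378b, 13.5. The lowest level of bta-miR-378b was 3.75 and the highest of bta-miR-378d was 1.81.

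Summed over the members, the family made up 0.0566% ± 0.0149 (SD, n = 11) of all counted reads. Holstein libraries averaged 0.0605% ± 0.0124 (SD, n = 5), Montbéliarde libraries averaged 0.0533% ± 0.0170 (SD, n = 6), and single libraries lay between 0.0316% and 0.0785%.

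The sources used here do not give the counting rule for a read that fits several miRNAs, so rows that might share reads were looked for. Among the 360 rows with a mean of at least 10 counts, 10 pairs kept a constant ratio to within 1% in all libraries, and none of these pairs held bta-miR-378 or bta-miR-378c, the 2 members in that range. bta-miR-378b and bta-miR-378d had too few reads for this check. bta-miR-378c had 36 to 135 reads per library, where counting error is larger than 1%, so the check could not show partly shared reads for it. Whether reads of bta-miR-378 with a changed base were counted under the scarcer names, bta-miR-378c among them, was not tested.

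**Figure D1:**
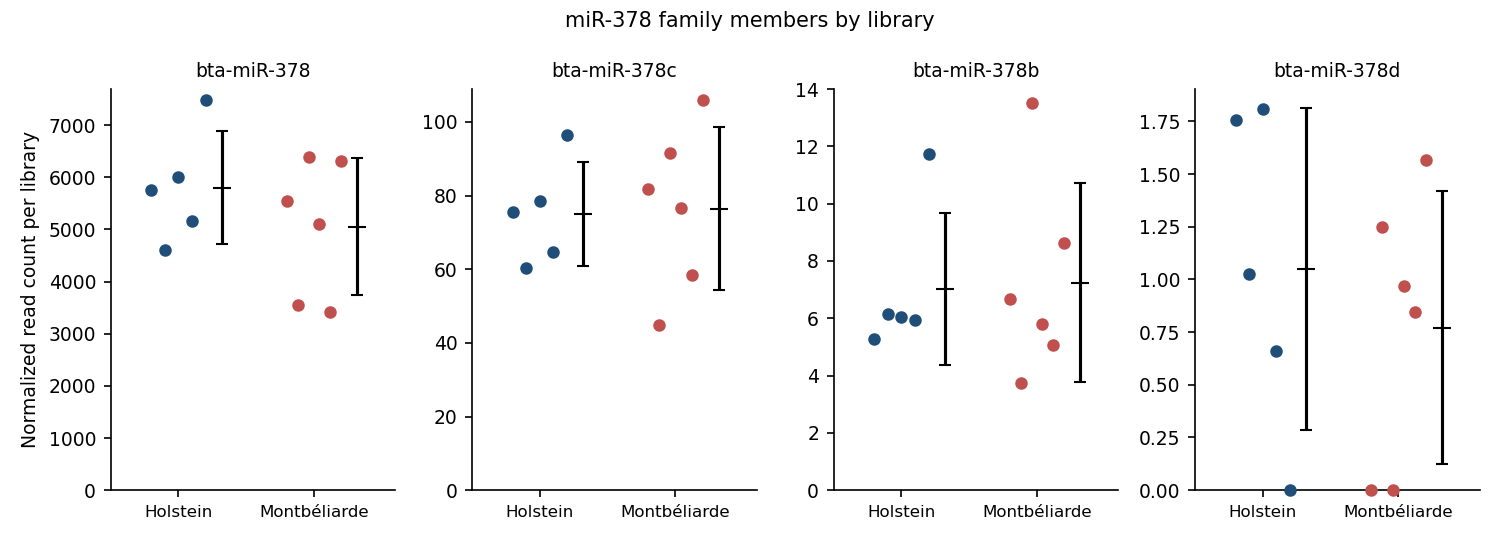
Normalized read count (vertical axis, linear, from 0) of each member in each library, with 1 point per cow and the mean ± SD of each breed in black. The breeds overlap for all 4 members, and Montbéliarde 2 and Montbéliarde 5 are the lowest 2 points for bta-miR-378.

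bta-miR-378, the dominant member, had normalized read counts of 5749, 4612, 5998, 5159 and 7491 in Holstein 1 to 5. In Montbéliarde the lowest library was at 3413, the median was 5325 and the highest library was at 6392. The other 4 Montbéliarde libraries lay within the Holstein range, while Montbéliarde 2 at 3560 and Montbéliarde 5 at 3413 lay below every Holstein library. Holstein averaged 5802 ± 1087 (SD, n = 5), and Montbéliarde averaged 5056 ± 1310 (SD, n = 6). The log2 fold change of Montbéliarde over Holstein was -0.21 (SE 0.19, 95% interval -0.62 to 0.20), and the edgeR quasi-likelihood test gave an adjusted p of 0.653. As a fold this is 0.865, with an interval from 0.650 to 1.15, which holds no change as well as a moderate difference in either direction. Counting error was small at this level. As a share of counted reads, the lowest library, Montbéliarde 2, was at 0.0312% (Wilson 95% interval 0.0301% to 0.0323%) and the highest, Holstein 5, at 0.0774% (0.0754% to 0.0794%). Such intervals cover counting error only.

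The size of the bta-miR-378 difference depended on single cows of both breeds. The log2 fold change was closest to 0 without Montbéliarde 2, at -0.04, and without Montbéliarde 5, at -0.07. It was -0.11 without Holstein 5, -0.14 without Holstein 1 or Holstein 3, and between -0.29 and -0.16 without any other single library. Within Montbéliarde the spread was wider than within Holstein, with an SD of 0.40 against 0.26 on the log2 scale.

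bta-miR-378c, a minor member, had 36 to 135 reads per library. Its normalized read counts were 75.5, 60.4, 78.4, 64.6 and 96.4 in Holstein 1 to 5, and in Montbéliarde they ran from 45.0 over a median of 79.1 to 105.9. The lowest library, Montbéliarde 2, and the highest, Montbéliarde 6, belonged to the same breed, and all Holstein libraries lay between them. The means were 75.1 ± 14.1 (SD, n = 5) and 76.5 ± 22.11 (SD, n = 6), with a log2 fold change of 0.02 (SE 0.24, interval -0.49 to 0.54, adjusted p = 0.978 in edgeR).

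bta-miR-378b was counted in every library, but with only 3 to 11 reads. Its normalized read counts were 5.27, 6.14, 6.03, 5.94 and 11.7 in Holstein 1 to 5 and ran from 3.75 over a median of 6.24 to 13.5 in Montbéliarde. The highest value was followed by 6.14 in Holstein and by 8.63 in Montbéliarde, and the breeds overlapped. The log2 fold change was 0.05 (SE 0.37, interval -0.74 to 0.84, adjusted p = 0.975 in edgeR).

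bta-miR-378d was at the limit of detection, with 12 reads in all. It had 2, 1, 3, 1 and 0 reads in Holstein 1 to 5, and 0 to 2 reads per library in Montbéliarde, with at least 1 read in 4 of 5 and 4 of 6 libraries. A count of 0 in Holstein 5 allows a share of up to 4.04e-05% of the counted reads, by a limit of 3 counts. The corresponding limits in Montbéliarde 1 and Montbéliarde 3 were 4.93e-05% and 4.13e-05%. The log2 fold change of -0.33 had an SE of 0.71 and an interval from -1.84 to 1.18, so no difference was detectable at this depth (adjusted p = 0.882 in edgeR).

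None of the 4 members passed the test between the breeds in edgeR, where 2 of 550 rows, or 0.364%, were called at an adjusted p of 0.05. At an unadjusted p of 0.05, 0 of the 4 members and 78 rows, or 14.2%, passed. The breeds overlapped for each member, whereas they did not overlap for 11 rows, or 2%. DESeq2 called 21 rows and limma with voom weights called 2, and none of these was a member. The log2 fold change was above 0 for 2 members and below 0 for 2, and with the members' reads summed it was -0.21. The size of the difference of bta-miR-378 was larger than that of 185 rows tested, or 33.6%.

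**Figure D2:**
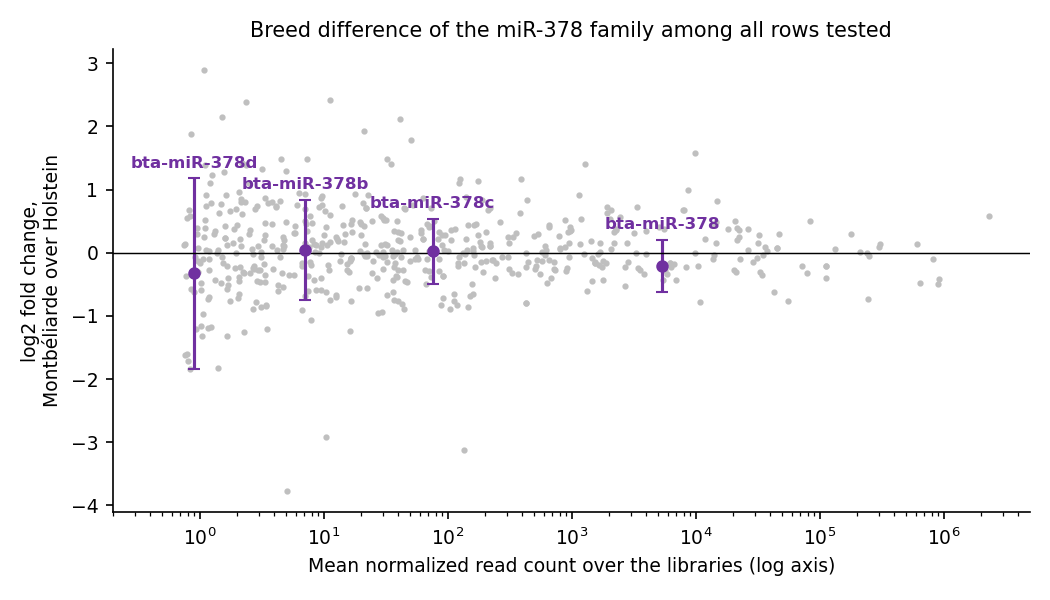
Log2 fold change of Montbéliarde over Holstein (vertical axis) against the mean normalized read count over the 11 libraries (horizontal axis, log scale) for the 550 rows tested in grey, with the 4 members in purple and their 95% intervals as bars. All 4 intervals include 0, and they widen from bta-miR-378 to bta-miR-378d as the reads become fewer.

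bta-miR-378 varied between cows about as much as other miRNAs did. The SD of its log2 level over the 11 libraries was 0.35, against a median of 0.38 over the 214 rows with a mean of at least 100 counts, of which 91, or 42.5%, had a smaller SD. Its highest library was 2.20 times its lowest.

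The 3 better counted members varied together across the cows. The log2 levels of bta-miR-378c and bta-miR-378 had a Pearson r of 0.899 and a Spearman rho of 0.9 over 11 libraries (permutation p = 0.0002 and 0.0005, adjusted over the 4 coefficients 0.0008 and 0.000987). Without Montbéliarde 2 and Montbéliarde 5, the libraries farthest from the median of bta-miR-378, r was 0.854. Within the 6 Montbéliarde libraries r was 0.937, and none is given within the 5 Holstein libraries, which are below the minimum of 6 set for a correlation. For bta-miR-378b r was 0.782 and rho was 0.8 (permutation p = 0.00074 and 0.00456, adjusted 0.000987 and 0.00456), and r was 0.741 without the same 2 libraries and 0.852 within Montbéliarde. These levels share the size factor of their library.

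A ratio between members does not depend on the scaling of a library. For every 1000 reads of bta-miR-378, Holstein 1 to 5 held 13.1, 13.1, 13.1, 12.5 and 12.9 reads of bta-miR-378c. In Montbéliarde the lowest library, Montbéliarde 2, held 12.6, the median was 14.9 and the highest, Montbéliarde 5, held 17.1. As many as 5 of the 6 Montbéliarde libraries lay above every Holstein library. The means were 12.9 ± 0.252 (SD, n = 5) and 15.1 ± 1.64 (SD, n = 6). The mean log2 ratio was higher by 0.21 in Montbéliarde, a fold of 1.16, with p = 0.0216 in the two-sided exact permutation test, in which the smallest possible p is 0.00433. With the reads of each breed summed the difference was 0.25 (exact permutation p = 0.00433, the smallest possible).

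Several measurements stand beside this ratio. Of the 225 rows with at least the mean count of bta-miR-378c and at least 10 reads in every library, 26, or 11.6%, had a ratio to bta-miR-378 with an exact permutation p of 0.05 or less. The median difference of these rows, with signs kept, was 0.20 in the same direction, all with bta-miR-378 as the denominator. Regardless of sign, 138 of them differed by more than bta-miR-378c did. With its sign kept, the difference of bta-miR-378c was thus close to the median, while its size was smaller than that of most rows. The Holstein log2 ratios had an SD of 0.03, which is smaller than the 0.16 that counting error alone gives at these read numbers, and the Wilson intervals of 10 of the 11 libraries held the ratio of all libraries together, 14.0.

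The scarcer members gave values with no test, because they had fewer than 10 reads in some library. bta-miR-378b had 1.16 reads per 1000 reads of bta-miR-378 over the Holstein libraries together and 1.40 over the Montbéliarde libraries together. bta-miR-378d had 0.203 and 0.180.

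**Figure D3:**
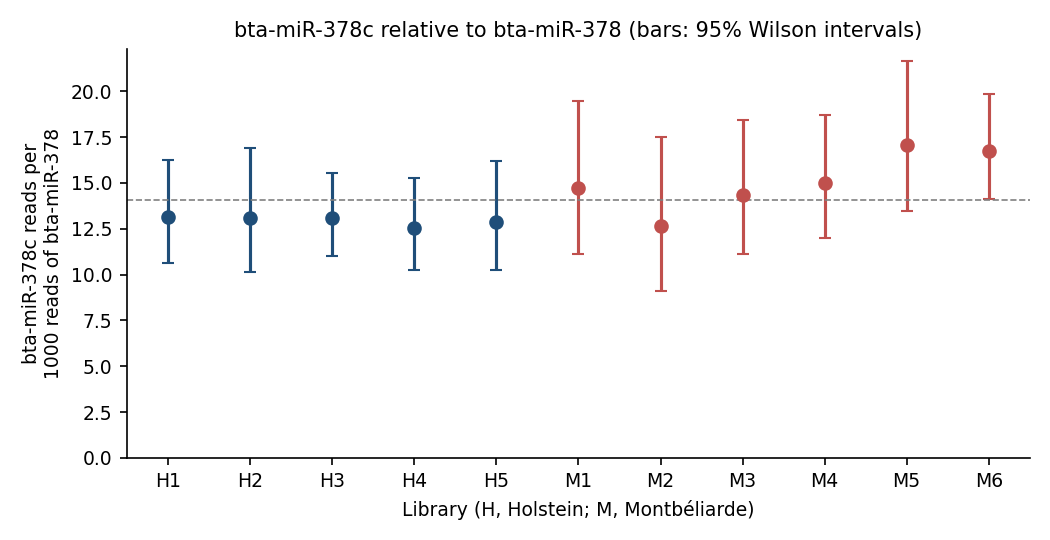
Reads of bta-miR-378c per 1000 reads of bta-miR-378 (vertical axis, from 0) in each library, with Wilson 95% intervals as bars and the ratio of all libraries together, 14.0, as a dashed line. The Holstein values sit between 12.5 and 13.1 and 5 of 6 Montbéliarde values above them, yet 10 of the 11 intervals include the dashed line.

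Outside the family, the rows whose level was most like that of bta-miR-378 were picked among 213 rows with a mean of at least 100 counts, by Spearman rho of log2 TMM-scaled levels over the 11 libraries. They were bta-miR-193a-5p (rho 0.855), bta-miR-374c (0.809), bta-miR-2285t (0.736), bta-miR-30f (0.718) and bta-miR-451 (0.682), an erythroid miRNA. These coefficients are descriptions of the highest of many.

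bta-miR-193a-5p stood apart among them by its constancy. Each library held between 20.6 and 25.6 reads of bta-miR-378 for 1 read of bta-miR-193a-5p, with a median of 22.9. The SD of this log2 ratio was 0.09, the lowest among the 227 rows at least as abundant as bta-miR-378c, whose median was 0.50, and counting error alone gives 0.10. bta-miR-378c itself came at place 3 of the 227 rows with an SD of 0.16, against 0.17 from counting error. For both, the spread of the ratio was no larger than counting error alone gives. Its normalized read counts ran from 147.5 in Montbéliarde 2 to 293.2 in Holstein 5.

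The least alike rows, with the lowest rho, were bta-miR-27a-3p (-0.882), bta-miR-146a (-0.818), bta-miR-199a-5p (-0.745), bta-miR-99a-5p (-0.745) and bta-miR-196b (-0.736). bta-miR-27a-3p is a miRNA known as a brake on adipocyte differentiation, and bta-miR-146a is known from immune cells. These 5 rows were added after their values were seen.

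**Figure D4:**
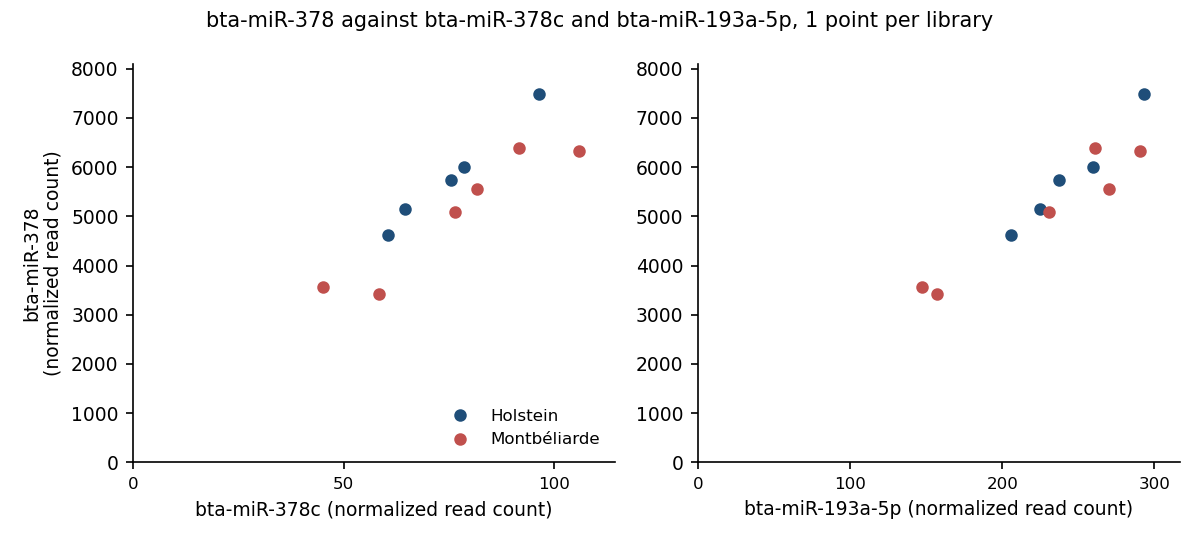
Normalized read count of bta-miR-378 (vertical axis) against that of bta-miR-378c (left) and bta-miR-193a-5p (right), with 1 point per library and both axes from 0. The points of both panels run along a line, with Montbéliarde 2 and Montbéliarde 5 at the low end and Holstein 5 with the highest bta-miR-378.

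Other miRNAs of adipose tissue, lipid and energy metabolism formed a list of 25, of which 24 were tested. None was called between the breeds in edgeR, 16 had a log2 fold change above 0 and 8 below 0, and the median was 0.16 against 0.03 over all rows. The paper, which used DESeq2, reported bta-miR-146b and bta-miR-455-5p of this list as higher in Montbéliarde. Their log2 fold changes here were 1.58 and 0.88 (adjusted p = 0.209 and 0.171 in edgeR). The list's most abundant member was bta-miR-143, which is known for adipocyte differentiation as well as for smooth muscle, with a log2 fold change of 0.58 (SE 0.18, adjusted p = 0.171 in edgeR). At -0.21, bta-miR-378 was on the other side of 0 from the list's median.

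Since miR-378 is abundant in muscle, muscle miRNAs were read beside it. Of 8 muscle miRNAs, bta-miR-206 and bta-miR-208a had no row in the table used here. The summed normalized read count of the other 6 lay between 619.7 and 1851 in the Holstein libraries, and 520.1 and 1625 bounded the Montbéliarde libraries, most of it bta-miR-133a, with a mean of 854 ± 502 (SD, n = 5) and 905 ± 365 (SD, n = 6). The highest muscle sum, 1851, was in Holstein 2, where bta-miR-378 was the lowest of its breed. The lowest sum, 520.1, was in Montbéliarde 6, where bta-miR-378 was at 6323. Montbéliarde 3 went the other way, with the highest sum of its breed, 1625, and the highest bta-miR-378 of its breed, 6392. Over all libraries the Spearman rho of the muscle sum with bta-miR-378 was -0.48, a description. The part of muscle in the level of bta-miR-378 was not tested. Of the 5 muscle miRNAs tested none was called, with 4 log2 fold changes above 0 and 1 below.

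Marker miRNAs of the cell types of the gland were set beside bta-miR-378. Over all libraries, the Spearman rho of bta-miR-378 with the summed level was 0.61 for erythroid and 0.28 for epithelial miRNAs. For endothelial miRNAs rho was 0.03, for stromal and smooth muscle miRNAs -0.53 and for leukocyte miRNAs -0.61. These coefficients are descriptions, and each rests mainly on 1 miRNA of its list. bta-miR-486 averaged 29836 of a mean erythroid sum of 31865 in Holstein and 33537 of 36206 in Montbéliarde. In the same order, bta-miR-142-5p averaged 19815 of 22613 and 23011 of 26682 of the leukocyte sums. bta-miR-141 averaged 310902 of 414527 and 188093 of 277069 of the epithelial sums. Of 7 epithelial miRNAs, among them the miR-200 family, 6 had a row and none was at 0, and their summed level spanned 367535 to 466746 in Holstein, against 180093 to 469496 in Montbéliarde. The lowest 2 sums were 181193 in Montbéliarde 2 and 180093 in Montbéliarde 5, the same libraries that were lowest for bta-miR-378. The median log2 fold change of the 6 epithelial miRNAs was -0.21, with 5 of the 6 below 0, and their most abundant, bta-miR-141, was at -0.74 (SE 0.26, adjusted p = 0.217 in edgeR). The sizes were uneven, with bta-miR-200a at -0.04 and bta-miR-200b at -0.10, and bta-miR-205 was above 0, at 0.38. None of the 6 was called.

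The stromal and smooth muscle miRNAs, all 5 with a row and none at 0, had sums of 1511914 to 2303536 in Holstein, against 1926891 to 3866930 in Montbéliarde. Montbéliarde 2 had the highest sum and Montbéliarde 5, at 3163046, the next. Almost all of this sum was bta-miR-143, which is also in the list of metabolic miRNAs. In Montbéliarde bta-miR-143 averaged 2757166 of a mean sum of 2772663, and in Holstein 1838346 of 1850003. The sum thus says little about the other stromal miRNAs, of which bta-miR-145 had a log2 fold change of -0.27. The 5 leukocyte miRNAs had sums of 18031 to 26952 in Holstein, against 17229 to 39422 in Montbéliarde, and again Montbéliarde 2 had the highest sum and Montbéliarde 5, at 33142, the next. The log2 fold change was above 0 for 4 of 5 stromal and 5 of 5 leukocyte miRNAs, with none called and medians of 0.58 and 0.40. Such counts take bta-miR-142-3p and bta-miR-142-5p as separate miRNAs, and likewise bta-miR-199a-3p and bta-miR-199a-5p, although each pair shares 1 precursor name. The part of the cell makeup of a biopsy in the level of bta-miR-378 was not tested.

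In other libraries the order differed. Montbéliarde 3 and Montbéliarde 6 had bta-miR-378 levels of 6392 and 6323 at epithelial sums of 315454 and 287471, below those of every Holstein library, and Holstein 2, with a sum of 466746, had the lowest bta-miR-378 of its breed. The sums of the 3 erythroid miRNAs, 23603 to 39552 in Holstein and 23429 to 57421 in Montbéliarde, and of the 2 endothelial miRNAs, 251466 to 330168 and 239684 to 297167, overlapped between the breeds. None of these 5 miRNAs was called. The hepatocyte miRNA bta-miR-122 was close to 0 in every library, with a highest normalized read count of 0.603.

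**Figure D5:**
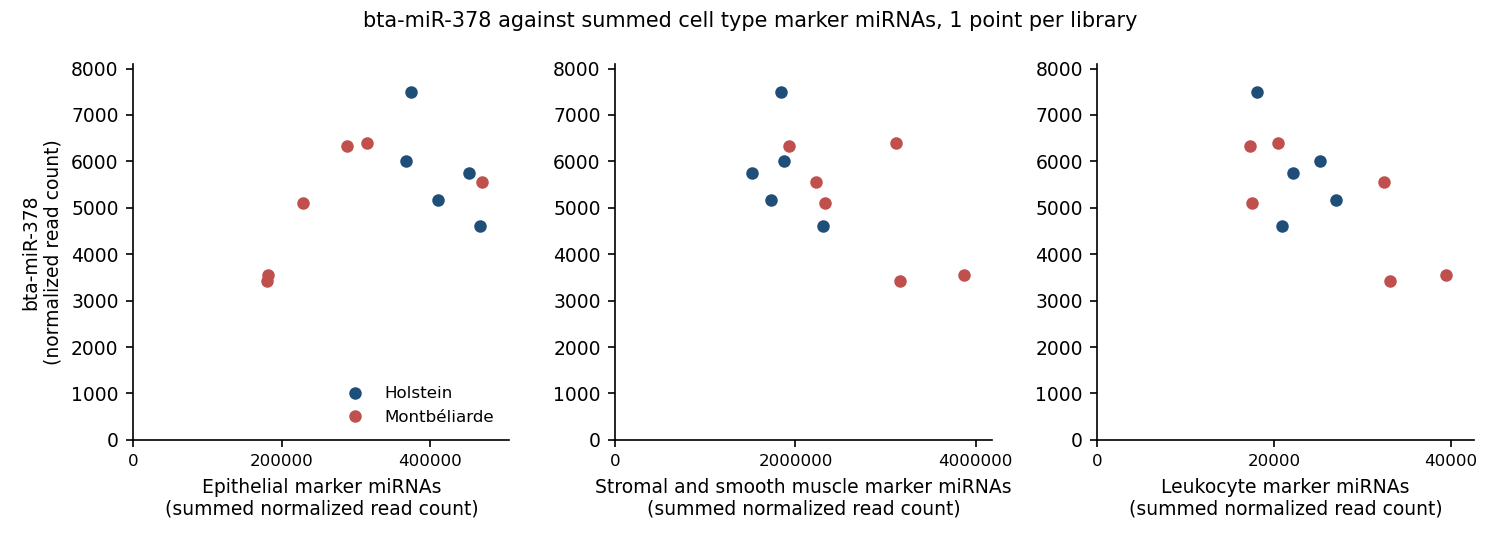
Normalized read count of bta-miR-378 (vertical axis) against the summed normalized read count of epithelial (left), stromal and smooth muscle (middle) and leukocyte (right) marker miRNAs, with 1 point per library and axes from 0. Montbéliarde 2 and Montbéliarde 5, lowest in bta-miR-378, are also lowest in the left panel and highest in the right.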

How the data were processed

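The authors trimmed adaptors, kept reads of 15 to 40 nt and quantified them with ncPRO-seq and miRDeep2 against btau5.0.1 and miRBase, and deposited raw read counts per miRNA and library. How reads matching several miRNAs were counted is not given in the sources used here. The submitters' processing notes name DESeq2 1.18.1 and bcl2fastq 2.17.1.14. The 11 normalized columns per library were not used, nor were the authors' comparison columns (breed means, fold changes, p-values).

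Levels are raw counts divided by DESeq2 size factors. The breed comparison used edgeR 4.0.16 (R 4.3.3, TMM, robust glmQLFit, glmQLFTest) for 550 rows whose counts sum to 10 or more, Benjamini-Hochberg adjusted over all of them at 0.05. DESeq2 1.42.0, limma 3.58.1, other scalings and filters, a covariate for the library total and leaving out single libraries were alternatives. The p-values of the breed comparison set a difference against the spread between cows, with 1 library per cow. Ratios used exact permutation tests (scipy 1.17.1), and correlations 100000 resamples. Shares of single libraries have Wilson intervals at 95%.

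Members and lists were chosen with earlier results of these data known. Beyond the members, miRNAs were to be named if they share a member's seed (not applied, as no sequence table was used here) or its reads, as the 5 most like bta-miR-378 in level, and as the most abundant or called of each list.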

Additional observations from a re-analysis of the deposited data

Results flagged for a closer look

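bta-miR-378b in Holstein 5 stood apart from the other Holstein libraries, with a normalized read count of 11.7 against 5.27 to 6.14 in the other 4. The gap to the nearest of them was 0.865 of the breed's whole range. It rests on 9 reads, where the other Holstein libraries had 6 to 10, and Holstein 5 has the fewest counted reads of its breed, 7431936. bta-miR-378 and bta-miR-378c were also highest in that library within Holstein. This was the only value to stand apart among the 12 groups of values looked at, and chance alone marks about 1 in 20 groups.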

How the results depend on the processing

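No member was called by any alternative, though the DESeq2 adjusted p of bta-miR-378d was not given. The difference of bta-miR-378 stayed below 0 throughout, from -0.32 to -0.19 with other tools, scalings and filters and from -0.29 to -0.04 with single libraries left out, as did the summed family (-0.28 to -0.04 with libraries left out). The differences of the 3 scarcer members changed sign under some settings, and the cause was not tested. With the library total as a covariate they became -0.20 for bta-miR-378b, -0.046 for bta-miR-378c and 0.46 for bta-miR-378d, and limma gave -0.0023 for bta-miR-378c. With libraries left out they ran from -0.16 to 0.26 for bta-miR-378b, from -0.10 to 0.22 for bta-miR-378c and from -0.63 to -0.09 for bta-miR-378d, which had too few reads to be tested without Holstein 3. The bta-miR-378c ratio stayed between 0.18 and 0.26 with libraries left out, with exact permutation p from 0.00794 to 0.0476. The ratio of bta-miR-378b ran from 0.08 to 0.31 and that of bta-miR-378d from -0.43 to 0.15. Rows called over the whole table numbered 0 with RLE scaling, 1 with library totals only, 21 with DESeq2 and 0 to 6 with libraries left out, and 82 rows passed at an unadjusted p with RLE. With a mean of at least 10 counts required, bta-miR-378b and bta-miR-378d had no value. A mean of log2 ratios could not be had for bta-miR-378d, which has libraries at 0. No paired analysis was possible, because each library came from a different cow and the design pairs no cows between the breeds. Depth limits bta-miR-378b and bta-miR-378d, with at most 11 and 3 reads per library.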
